A study of Mus musculus with 4 samples.

Results

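The CDK inhibitors and D cyclins of the mouse were examined as 10 genes among the 31053 in the deposited matrices of sorted bone marrow (BM) macrophages. They were taken by gene symbol: the Cip/Kip inhibitors Cdkn1a, Cdkn1b and Cdkn1c, the INK4 inhibitors Cdkn2a, Cdkn2b, Cdkn2c and Cdkn2d, and the D cyclins Ccnd1, Ccnd2 and Ccnd3. BM cells of male C57BL/6J mice were grown with M-CSF at 30 ng/mL for 4 days. The mice were aged 4 to 6 weeks by the methods and 4 weeks by the figure legend of the single-cell experiments. For co-culture, the methods name plating in medium with 0.25% serum. Efferocytic BM macrophages were F4/80+CFSE+ cells sorted after 16–18 h of co-culture with apoptotic RM1 cells, 1 tumor cell per macrophage. RM1 is a mouse prostate cancer line made with Ras and Myc, and CFSE is the dye that the RM1 cells carried. Non-efferocytic BM macrophages were sorted F4/80+ cells, and no genetic alteration was made in either group. The study's discussion describes these controls as macrophages alone. Its methods do not state whether RM1 cells were in their cultures. Each of 2 experiments gave 1 library per group, so 2 efferocytic libraries stand against 2 non-efferocytic libraries. The methods give a minimum number of independent mice per group for work with BM macrophages but not how many stand behind each library, so p-values measure the spread between these libraries, which may be technical. Because both RM1 cells and macrophages are of mouse origin, RNA of engulfed cells and macrophage RNA carry the same gene names and cannot be told apart here.

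The 10 genes were selected on measured values, their CPM and their share of positive cells in efferocytic against non-efferocytic libraries, and that contrast is therefore given for them as a description, without a test. Tests on these genes are limited to comparisons that did not enter the choice, between cells with and without mitosis or DNA replication transcripts and between the groups in that difference.

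Cyclin-dependent kinases (CDKs) drive the cell cycle when bound to cyclins. D cyclins activate CDK4 and CDK6 in response to growth factors such as M-CSF, and these kinases begin the inactivation of the retinoblastoma protein, which releases E2F factors. INK4 proteins block CDK4 and CDK6, while Cip/Kip proteins bind a wider range of cyclin and CDK complexes and can also help D cyclins assemble with their kinases. Macrophages grown with M-CSF divide for some days and then leave the cycle as they mature.

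Barcodes were kept as cells when they held 200 or more genes, 1000 or more UMIs and no more than 10% of UMIs from mitochondrial genes, a UMI being 1 captured molecule. This left 8280 and 13411 cells in the non-efferocytic libraries of Experiments 1 and 2, and 6695 and 8408 in the efferocytic libraries. The UMIs in cells ranged from 101216659 to 155224183 per library. The median per cell was 11146 and 9600 UMIs in the non-efferocytic libraries and 17171 and 17475.5 in the efferocytic ones. Barcodes of 500 to 999 UMIs numbered 36048 in the non-efferocytic library of Experiment 2, against 1048 to 2046 in the others. Pairs of libraries shared 14 to 23 cell barcodes, except that both libraries of Experiment 2 shared 118, against 16.6 from the size of the lists. Of the cells, 96.8% to 99.0% had a UMI of Adgre1 (F4/80), Csf1r or Cd68, F4/80 being the protein of the sort. Adgre1 alone was detected in 83.6% to 93.2% of cells, with the lowest share in the non-efferocytic library of Experiment 2. Cells with at least 3 detected markers of another lineage made up 2.05% and 5.20% of the non-efferocytic cells and 1.14% and 1.44% of the efferocytic cells.

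Cdkn1a (p21), a Cip/Kip inhibitor that p53 induces, was the most abundant of the 10 genes in every library. Its level was 333 CPM (UMIs per 1000000 UMIs in cells) in the non-efferocytic library of Experiment 1 and 122 CPM in the efferocytic one. In Experiment 2 it was 242 and 78.8 CPM. Both efferocytic libraries thus lay below both non-efferocytic libraries, 2.73-fold in Experiment 1 and 3.06-fold in Experiment 2, with group means of 101 ± 30.7 and 288 ± 65.0 CPM (SD, n = 2). The gene lies on chromosome 17 (chr17:29090976-29100727, plus strand, GRCm38). The 250 bases before its upstream start in the RefSeq table (GRCm38.p6, chr17:29090729-29090978, plus strand) are shown because genes known as p53 targets are described beside Cdkn1a further on. Capitals mark a match to the 20-base p53 site with at most 1 mismatch, which begins 51 bases before the start and was found in 25 of 32851 promoter windows of that table (0.0761%). The other Cdkn1a window of the table (chr17:29093519-29093768, plus strand) held no such match. This site was searched for after the window had been read, and a match is a description of the letters.
Cdkn1a: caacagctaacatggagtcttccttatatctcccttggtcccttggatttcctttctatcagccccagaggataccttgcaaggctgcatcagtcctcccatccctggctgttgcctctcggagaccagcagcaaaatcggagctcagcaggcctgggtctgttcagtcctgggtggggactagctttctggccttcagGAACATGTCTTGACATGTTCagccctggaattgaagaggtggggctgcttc

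Cdkn1b (p27), the Cip/Kip inhibitor known for accumulating in cells that leave the cycle, was also lower in both efferocytic libraries. It was at 34.0 and 31.4 CPM in the non-efferocytic libraries and at 18.7 and 13.3 CPM in the efferocytic libraries of Experiments 1 and 2. The groups did not overlap, and the means were 32.7 ± 1.80 and 16.0 ± 3.83 CPM (SD, n = 2).

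Cdkn1c (p57), an imprinted Cip/Kip inhibitor expressed from the maternal allele, went the other way. The non-efferocytic libraries held 11.8 and 11.7 CPM and the efferocytic libraries 45.3 and 65.1 CPM. The groups did not overlap, and the efferocytic level was 3.83-fold higher in Experiment 1 and 5.56-fold higher in Experiment 2. Summed over the family, Cip/Kip UMIs were at 379 and 285 CPM in the non-efferocytic libraries and at 186 and 157 CPM in the efferocytic ones. A 3′ library gives 1 UMI per captured molecule whatever the transcript's length, so shares of a family can be read as shares of molecules captured. Cdkn1c made up 3.12% and 4.11% of the Cip/Kip UMIs of non-efferocytic BM macrophages and 24.3% and 41.4% of those of efferocytic BM macrophages. The share of Cdkn1a moved from 87.9% and 84.8% to 65.6% and 50.2%, while that of Cdkn1b lay between 8.45% and 11.0% in all 4 libraries.

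**Figure D1:**
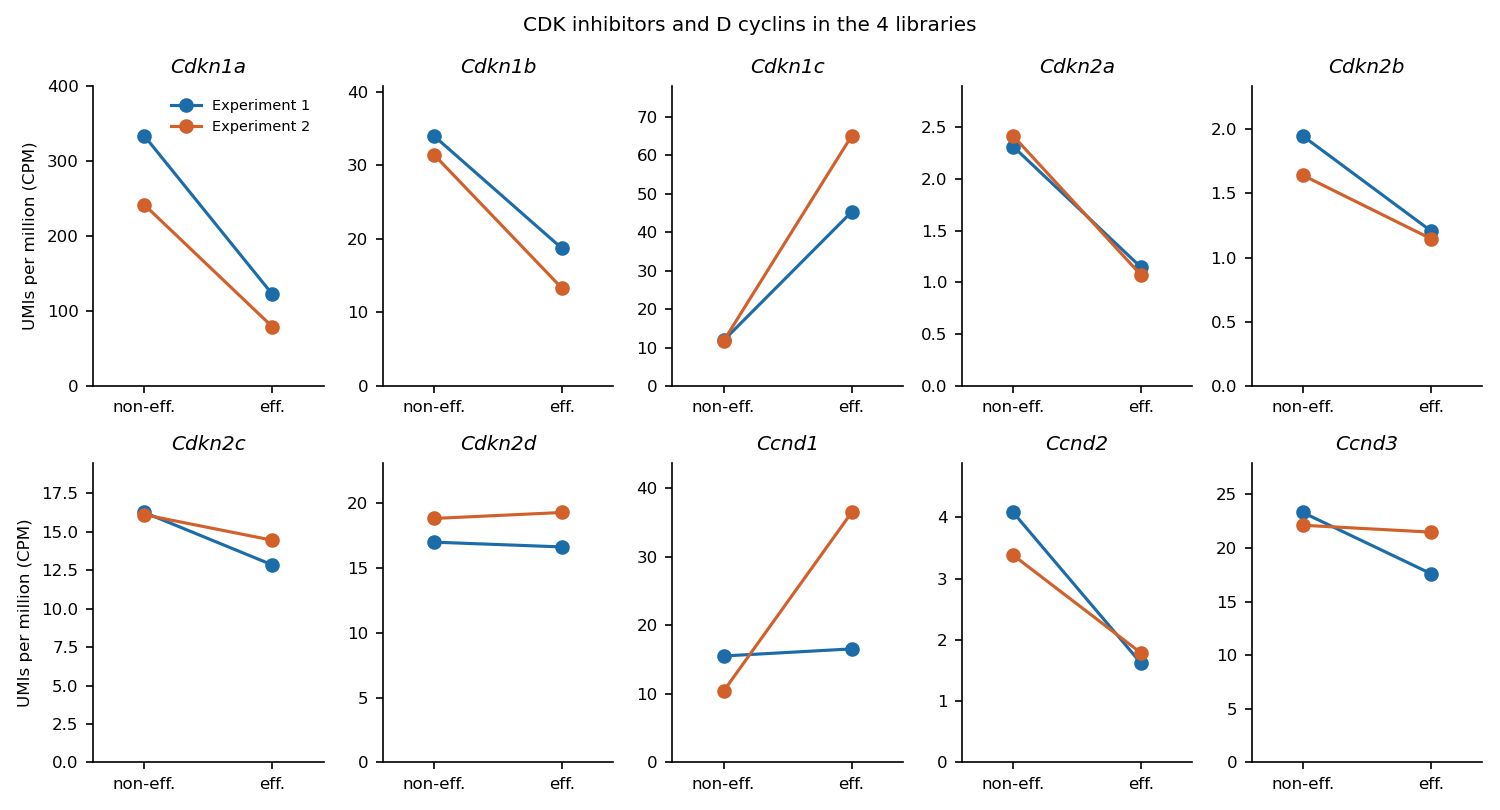
Level of each of the 10 genes in each library, in CPM on linear axes that start at 0 and differ between genes, with non-efferocytic (non-eff.) libraries on the left, efferocytic (eff.) libraries on the right and a line joining the libraries of 1 experiment (blue for Experiment 1, orange for Experiment 2). Cdkn1c stands at 45.3 and 65.1 CPM in efferocytic against 11.8 and 11.7 CPM in non-efferocytic libraries, Cdkn1a is lower in both efferocytic libraries, and Cdkn2d overlaps between the groups.

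The INK4 genes were expressed at lower levels, and most of their UMIs came from Cdkn2c and Cdkn2d. Cdkn2c (p18) was at 16.3 and 16.1 CPM in the non-efferocytic libraries and at 12.8 and 14.5 CPM in the efferocytic ones. Cdkn2d (p19 of the INK4 family) was at 17.0 and 18.8 CPM against 16.6 and 19.3 CPM, and with all cells it was the only one of the 10 genes whose groups overlapped. Cdkn2c made up 40.2% to 43.4% and Cdkn2d 45.3% to 53.6% of INK4 UMIs in the 4 libraries.

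Cdkn2a and Cdkn2b, neighbors 11.6 kb apart on chromosome 4 (chr4:89274471-89294653 and chr4:89306299-89311039, minus strand, GRCm38), are better known from aging and oncogene-stressed cells. For Cdkn2a the non-efferocytic libraries had 2.31 and 2.41 CPM and the efferocytic ones 1.14 and 1.07 CPM, from 143 to 334 UMIs per library. UMIs of this gene do not separate its 2 products, the INK4 protein p16 and the unrelated protein ARF, which share an exon. Cdkn2b (p15), which TGF-β is known to induce, was at 1.95 and 1.64 CPM against 1.21 and 1.15 CPM, from 151 to 227 UMIs. Both genes were lower in each efferocytic library than in each non-efferocytic library, at levels where 3 counts correspond to between 0.0193 and 0.0296 CPM.

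Among the D cyclins, Ccnd1 (cyclin D1) was higher in the efferocytic libraries, and the experiments differed widely. It was at 15.5 and 16.5 CPM in the non-efferocytic and efferocytic libraries of Experiment 1, a ratio of 1.07, and at 10.4 and 36.4 CPM in those of Experiment 2, a ratio of 3.50. Ccnd2 (cyclin D2) stood at 4.08 and 3.38 CPM against 1.62 and 1.78 CPM, lower in both efferocytic libraries. Ccnd3 (cyclin D3), the most abundant D cyclin in 3 of 4 libraries, was at 23.3 and 22.1 CPM against 17.6 and 21.5 CPM. Ccnd1 made up 36.2% and 29.0% of D cyclin UMIs in non-efferocytic and 46.2% and 61.0% in efferocytic BM macrophages, and Ccnd2 9.51% and 9.42% against 4.52% and 2.99%. Ccnd1 lies 1469 kb from Cdkn1c on chromosome 7 (chr7:144929931-144939925 and chr7:143458339-143461050, minus strand, GRCm38).

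**Figure D2:**
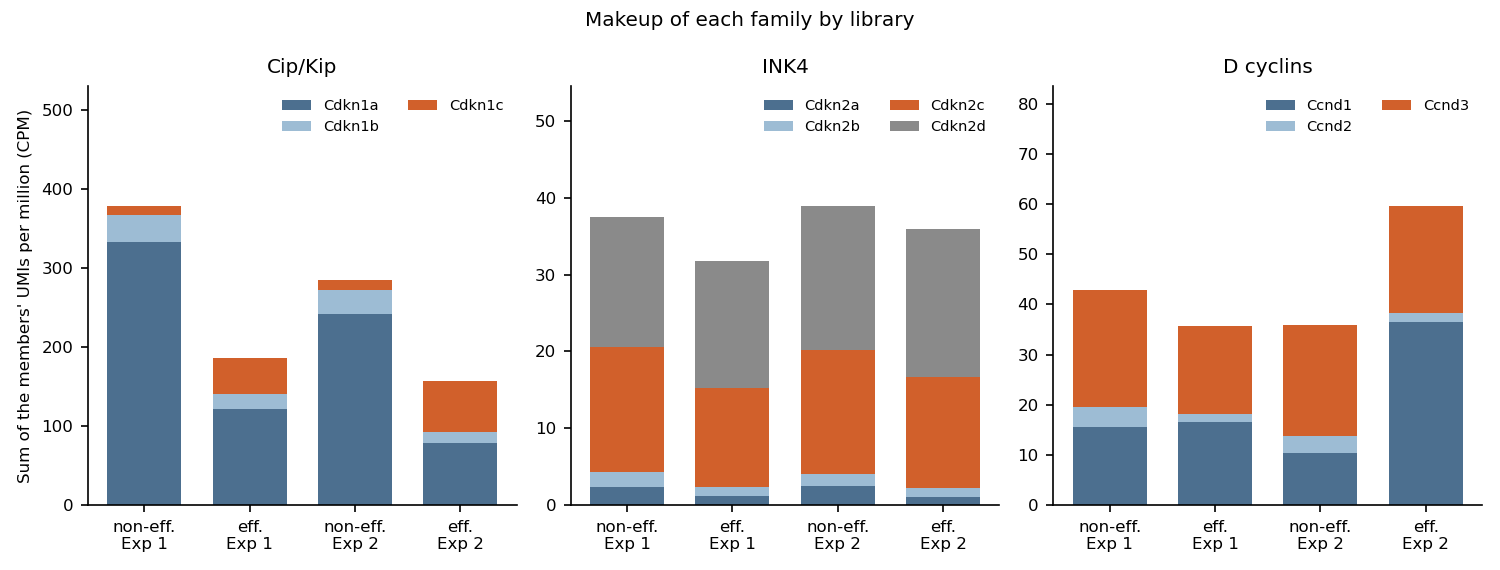
Summed level of each family in the 4 libraries, in CPM, as bars that start at 0 and are stacked by gene, for Cip/Kip inhibitors, INK4 inhibitors and D cyclins, each on its own axis. Cdkn1c takes 24.3% and 41.4% of Cip/Kip UMIs in efferocytic libraries against 3.12% and 4.11% in non-efferocytic ones, and Ccnd1 takes 61.0% of D cyclin UMIs in the efferocytic library of Experiment 2.

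In all, 2 of the 10 genes lay higher in both efferocytic libraries than in both non-efferocytic ones and 7 lay lower, where 22.2% and 44.7% of the 13869 genes tested did so. The choice of the genes used this contrast, so these counts were not read further. Without cells that carried markers of other lineages, described further on, the groups of Ccnd3 overlapped as well. The log2 fold changes estimated by edgeR with the experiment as a block, efferocytic minus non-efferocytic, were 2.32 for Cdkn1c and 1.07 for Ccnd1. At the other end lay Cdkn1a at −1.42, Ccnd2 at −1.02, Cdkn2a at −0.99, Cdkn1b at −0.95 and Cdkn2b at −0.49. Cdkn2c, Cdkn2d and Ccnd3 stayed between −0.14 and 0.11. The value of Ccnd1 depended on the libraries: it was 0.50 with the efferocytic library of Experiment 2 left out, and 1.57 with that of Experiment 1 left out.

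These fitted values are relative to library totals scaled by TMM, and efferocytic cells held more UMIs. Scaled to library totals alone, the median of all genes was −0.12 in place of −0.02. Counted per cell, the median of all genes shifted from −0.02 to 0.61 on the log2 scale, and 6 of the 10 genes then lay above 0 instead of 3. On that scale Cdkn1a remained below 0 at −0.81, as did Cdkn1b at −0.33, Cdkn2a at −0.37 and Ccnd2 at −0.40. Cdkn1c was at 2.93 and Ccnd1 at 1.68. The other 4 genes, Cdkn2b, Cdkn2c, Cdkn2d and Ccnd3, lay at 0.13, 0.48, 0.73 and 0.50, against the shifted median of 0.61.

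The share of cells with a UMI was compared after thinning each cell to 5000 UMIs, which left out 1099 and 3404 non-efferocytic and 544 and 505 efferocytic cells. Cdkn1a was detected in 68.0% and 55.8% of the non-efferocytic cells and in 34.2% and 23.6% of the efferocytic cells. Without thinning these shares were 80.4% and 63.1% against 56.0% and 43.6%, in the same order although efferocytic cells held more UMIs. Cells with at least 2 Cdkn1a UMIs after thinning made up 42.6% and 29.7% of non-efferocytic and 14.8% and 8.15% of efferocytic cells.

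Cdkn1c was detected in a minority of cells in every library. A UMI was found in 2.16% (exact binomial 95% interval 1.83% to 2.52%) and 2.50% (2.20% to 2.82%) of thinned non-efferocytic cells and in 6.41% (5.81% to 7.05%) and 8.71% (8.09% to 9.35%) of efferocytic cells. These intervals cover counting error only. Unthinned shares were 4.69% and 4.76% against 12.9% and 17.7%. Not only were more cells positive, but a positive cell held 2.86 and 3.0 UMIs on average in the efferocytic libraries, against 1.71 and 1.66 in the non-efferocytic ones, out of 5000. Cells with at least 2 Cdkn1c UMIs made up 2.58% and 3.85% of efferocytic and 0.251% and 0.340% of non-efferocytic cells, and single cells reached 25 to 52 UMIs in the 4 libraries. Cells with neutrophil-lineage markers, at median depths of 14253 to 24824.5 UMIs, had a Cdkn1c UMI in 1.61% and 1.73% (non-efferocytic) and 7.69% and 2.38% (efferocytic) of cases after thinning, the last pair being 4 of 52 and 1 of 42 cells.

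Npy and Plpp3, a neuropeptide and a lipid phosphatase, were looked up because earlier results of these data had placed them with Cdkn1c. Their shares are therefore a description. Among thinned cells free of markers of other lineages, both genes were detected more often in cells with Cdkn1c than in those without it. Npy was found in 47.3% and 66.2% of Cdkn1c-positive efferocytic cells, against 31.0% and 47.0% of negative ones, and Plpp3 in 19% and 21.5%, against 7.29% and 13.0%.

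Ccnd1 was detected in 4.79% and 3.42% of thinned non-efferocytic cells and in 6.03% and 13.9% of thinned efferocytic cells. Unlike Cdkn1c, a Ccnd1-positive cell held 1.27 to 1.35 UMIs in all 4 libraries. Over the 10 genes, 2 were detected in a larger share of thinned efferocytic cells in both experiments and 7 in a smaller share, with Cdkn2d mixed. Without thinning, 5 shares were larger and 3 smaller in both experiments. The shares of Cdkn2c, Ccnd3 and Cdkn2d are among those that pointed up before thinning, and Cdkn2c and Ccnd3 pointed down after it, with overlapping intervals for Ccnd3 in both experiments. Such intervals cover counting error within a library only and are not a test between the groups.

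**Figure D3:**
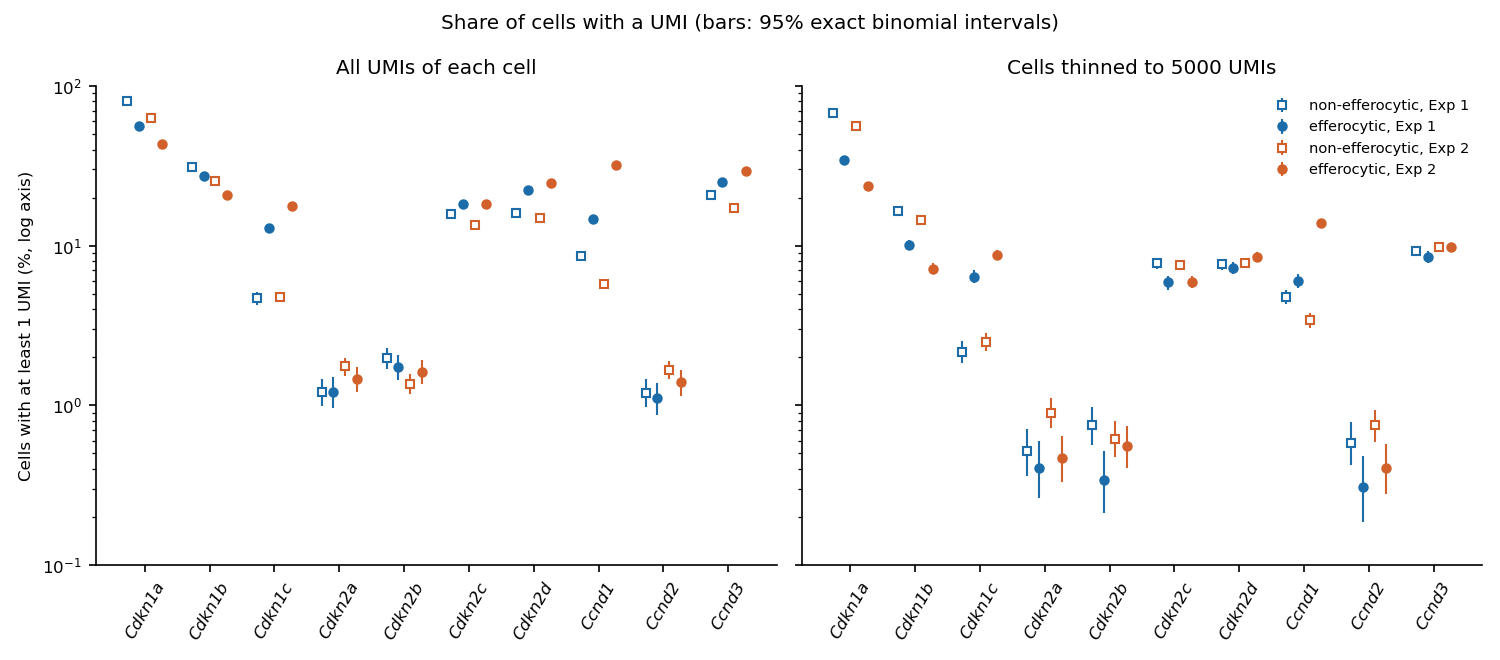
Share of cells with at least 1 UMI of each gene, in percent on a log axis, without thinning and after thinning every cell to 5000 UMIs, with exact 95% binomial intervals as bars. Open squares are non-efferocytic and filled circles efferocytic libraries, blue for Experiment 1 and orange for Experiment 2. Thinned Cdkn1a shares are 68.0% and 55.8% in non-efferocytic and 34.2% and 23.6% in efferocytic libraries, while Cdkn1c shares are 2.16% and 2.50% against 6.41% and 8.71%.

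RNA outside cells differed between the experiments for Cdkn1c. In barcodes of 10 to 100 UMIs it was at 228 and 313 CPM in the non-efferocytic and efferocytic libraries of Experiment 1, above its level in cells, and at 13.4 and 22.6 CPM in Experiment 2. Removing 10% of each library's UMIs in proportion to these barcodes left 0 Cdkn1c UMIs in the non-efferocytic library of Experiment 1. No Cdkn1c fold change was therefore read for Experiment 1 from that setting. In the efferocytic library of that experiment it left 1745 of 5662 UMIs, which took Cdkn1c from 45.3 to 15.4 CPM and from 24.3% to 10.4% of Cip/Kip UMIs, while 1434 and 9750 UMIs were left in Experiment 2. Ccnd1 had an efferocytic to non-efferocytic ratio of 6.71 in Experiment 2 after this removal in place of 3.50, and 1.03 in Experiment 1 in place of 1.07. The ratio of Ccnd3 in Experiment 1 moved from 0.756 to 0.425 and that of Cdkn2a in Experiment 2 from 0.443 to 0.261. Cdkn1a in these barcodes was at 154 to 247 CPM in the 4 libraries. The removal was made on library sums. The part of free RNA in the shares of positive cells and in the UMIs per positive cell was not tested.

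A small number of cells with markers of other lineages held much of the rarest genes. Cells with fibroblast-like and stromal markers, 41 and 202 in the non-efferocytic and 23 and 33 in the efferocytic libraries, held 53.8% to 81.6% of Ccnd2 UMIs, 34.3% to 65.4% of Cdkn2a UMIs and 22.8% to 28.7% of Cdkn2b UMIs. In these cells Ccnd2 was at 95.3 to 223 CPM and Cdkn2a at 46.5 to 101 CPM. Both lowest levels were those of the non-efferocytic library of Experiment 2. Its marked cells had a median of 9378.5 UMIs, against 32499 to 37571 in the other libraries. The summed level of the 15 stromal markers, none of them at 0, was 237 and 209 CPM for the non-efferocytic libraries against 77.9 and 90.6 CPM for the efferocytic ones. Without all cells that carried markers of other lineages, Ccnd2 was at 0.750 and 1.37 CPM against 0.570 and 0.561 CPM, and Cdkn2a at 0.811 and 1.55 CPM against 0.667 and 0.699 CPM. Their log2 fold changes were then −0.81 and −0.68.

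Ccnd3 and Cdkn2d were high in cells with neutrophil-lineage markers, at 81.6 to 143 and 48.1 to 85.7 CPM. These cells, 131 and 453 in the non-efferocytic and 54 and 46 in the efferocytic libraries, held 14.4% and 18.7% of Ccnd3 UMIs in the former and 7.08% and 4.20% in the latter. Without all cells that carried markers of other lineages, Ccnd3 was at 20.4 and 18.7 CPM against 16.5 and 20.5 CPM, so that its groups overlapped and Experiment 2 turned to higher in the efferocytic library. The summed level of the 13 neutrophil-lineage markers, none of them at 0, was 3109 and 3423 CPM for the non-efferocytic libraries against 985 and 747 CPM for the efferocytic ones. For Cdkn1a, Cdkn1b and Cdkn1c, cells without such markers held at least 93.6% of the UMIs in every library, and the Cdkn1c log2 fold change without the marked cells was 2.26.

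Cells were next divided by the cell cycle, using 30 mitosis genes and 31 DNA replication genes, none of them among the 10. In cells thinned to 5000 UMIs, the mitotic class had at least 5 detected mitosis genes, the replicating class had fewer than 5 of those and at least 5 replication genes, and the resting class had at most 1 of each. These are ranges of a count, not cell types: between 14 and 55 cells per library stood exactly at 5 mitosis genes. The mitotic class held 271 and 411 non-efferocytic and 165 and 360 efferocytic cells, the replicating class 32 and 53 against 73 and 276, and the resting class 4766 and 6319 against 4429 and 5242. UMIs were summed by class and library and tested across 11556 genes with the library as a block.

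Neutrophil-lineage markers moved with most of these classes. In the non-efferocytic libraries of Experiments 1 and 2 they summed to 914 and 732 CPM in the resting class, 68412 and 64096 CPM in the replicating class and 41156 and 46670 CPM in the mitotic class. In the efferocytic libraries the sums were 251 and 109 CPM, 5806 and 20.1 CPM, and 20121 and 12401 CPM, so that the replicating class of Experiment 2 lay below its resting class. Mitotic-class sums thus differed between the groups, and their part in the differences with all cells was not tested. Without the cells that carried markers of other lineages, 10700 genes were tested and 8 of the 10 genes remained, as Ccnd2 and Cdkn2b fell under the filter on low counts. The replicating class then held only 21 and 29 non-efferocytic cells, besides 71 and 273 efferocytic ones. Both fits are given in what follows, and the second is called the fit without marked cells.

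In mitotic-class cells, 8 of the 10 genes were higher than in resting-class cells and Cdkn1c was lower, where 24.1% of all genes were called higher and 22.8% lower. Without marked cells, 6 of 8 were higher and 1 lower, where 18.6% and 19.8% of all genes were.

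Cdkn2c and Cdkn2d rose most clearly with mitosis. Without marked cells, Cdkn2c was at 9.91 to 13.7 CPM in the resting class and at 62.8, 54.4, 68.1 and 97.0 CPM in the mitotic class of the non-efferocytic libraries 1 and 2 and the efferocytic libraries 1 and 2. Cdkn2d was at 14.2 to 15.5 CPM in the resting class and at 62.5, 54.8, 83.4 and 92.6 CPM in the mitotic class. Every mitotic-class value thus lay above every resting-class value for both genes. The edgeR log2 differences were 2.46 (standard error 0.146, adjusted p = 1.43e-10) for Cdkn2c and 2.18 (standard error 0.109, adjusted p = 1.10e-11) for Cdkn2d. In the replicating class neither gene passed the test, at log2 differences of 0.23 (adjusted p = 0.600) and −0.26 (adjusted p = 0.395) in edgeR. The promoters of both are shown because these genes moved together, 250 bases before a RefSeq start (GRCm38.p6, the upstream of 2 starts for Cdkn2c), at chr4:109666757-109667006 and chr9:21291210-21291459, both on the minus strand and read 5′ to 3′. Capitals mark GC boxes (GGGCGG or its complement CCGCCC) and, in Cdkn2d, 1 CCAAT box on the other strand (ATTGG).
Cdkn2c: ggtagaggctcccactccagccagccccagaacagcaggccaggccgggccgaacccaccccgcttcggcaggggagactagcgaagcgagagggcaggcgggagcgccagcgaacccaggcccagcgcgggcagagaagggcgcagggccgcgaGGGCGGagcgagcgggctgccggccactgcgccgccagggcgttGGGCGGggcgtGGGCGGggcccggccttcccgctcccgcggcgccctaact
Cdkn2d: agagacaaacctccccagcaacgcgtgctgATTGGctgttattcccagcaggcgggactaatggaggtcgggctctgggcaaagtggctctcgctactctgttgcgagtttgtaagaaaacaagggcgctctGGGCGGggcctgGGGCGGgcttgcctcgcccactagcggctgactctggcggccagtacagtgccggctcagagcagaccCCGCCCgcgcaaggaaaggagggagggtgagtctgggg
Each of these windows held 3 GC boxes, at 95, 51 and 40 bases before the start in Cdkn2c and at 118, 106 and 38 bases in Cdkn2d. A GC box was present on either strand in 32.7% of all windows and a CCAAT box in 33.8%. The letters TTTGAA, the core of the element through which DREAM and B-MYB complexes act on mitotic genes, were in neither window and in 16.0% of all windows, and the E2F-like letters TTTNNCGC were in neither and in 4.28%. No motif searched for overlapped another in these windows. The window before the other Cdkn2c start (chr4:109665373-109665622, minus strand), with 42.8% G and C against 77.2% in the one shown, held none of these motifs. Of the other genes, Cdkn1b, Cdkn2a, Cdkn2b and Ccnd3 also had windows in the table, and 3 had none.

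Cdkn2a was higher in the mitotic class by 2.68 on the log2 scale (standard error 0.357, edgeR adjusted p = 9.84e-06, without marked cells), on 16 to 30 UMIs per library in that class. Its mitotic-class levels were 4.72, 6.25, 5.44 and 2.50 CPM in the same order of libraries, against 0.480 to 0.940 CPM in the resting class.

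Cdkn1c was lower in the mitotic class, at 7.37 and 5.21 CPM in the non-efferocytic and 19.4 and 30.5 CPM in the efferocytic libraries, against 15.1, 12.4, 48.7 and 76.9 CPM in the resting class. The edgeR log2 difference was −1.38 (standard error 0.186, adjusted p = 1.19e-05). In the replicating class it was at 26.8, 2.02, 1.79 and 7.05 CPM, listed likewise. The edgeR log2 difference from the resting class was −3.35 (standard error 0.306, adjusted p = 2.74e-07), although the non-efferocytic library of Experiment 1, with 8 UMIs in 21 cells, went the other way. In the resting and mitotic classes, both efferocytic libraries lay above both non-efferocytic libraries.

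Cdkn1a and Cdkn1b differed little between classes. Without marked cells, the log2 difference of Cdkn1a was 0.46 in the mitotic class (edgeR adjusted p = 4.81e-05) and −0.31 in the replicating class (edgeR adjusted p = 0.0157). That of Cdkn1b was 0.38 (edgeR adjusted p = 0.00287) and −0.45 (edgeR adjusted p = 0.0441). With all cells, Cdkn1b in the replicating class did not pass the test (edgeR adjusted p = 0.0834).

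Ccnd1 was the gene of the replicating class. Without marked cells it was at 178 and 161 CPM there in the non-efferocytic libraries and at 117 and 103 CPM in the efferocytic libraries, against 13.0, 7.65, 12.2 and 31.0 CPM in the resting class. Every replicating-class value exceeded every resting-class value, on 53, 80, 197 and 629 UMIs. The edgeR log2 difference fitted over all libraries was 2.83 (standard error 0.295, edgeR adjusted p = 1.42e-06), and its size differed between libraries. The level was 13.6- and 21.1-fold that of the resting class in the non-efferocytic libraries, and 9.61- and 3.32-fold in the efferocytic ones. In the mitotic class it was at 14.7, 14.0, 32.1 and 37.2 CPM and did not pass the test (log2 difference 0.59, edgeR adjusted p = 0.110), while with all cells it did (0.75, edgeR adjusted p = 0.0222).

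Ccnd3 was higher in both classes, by 0.77 in the mitotic class (edgeR adjusted p = 5.96e-06) and by 0.90 in the replicating class (edgeR adjusted p = 9.64e-05) on the log2 scale. With all cells, neutrophil-lineage cells included, the differences were 1.60 and 1.59. Ccnd2 was tested with all cells only, where it was higher by 1.67 (edgeR adjusted p = 0.00234) and 2.61 (edgeR adjusted p = 0.000706), with most of its UMIs in marked cells. Without those cells only 2 to 4 Ccnd2 UMIs per library were left in the mitotic class and 0 to 2 in the replicating class. Its mitotic-class levels were then 0.590, 0.417, 0.518 and 0.555 CPM in the non-efferocytic and then the efferocytic libraries, against 0.657, 0.991, 0.491 and 0.520 CPM in the resting class, with no common direction. Cdkn2b did not pass in either class (edgeR adjusted p = 0.112 and 0.844). In the replicating class 3 of 10 genes were thus higher and 2 lower with all cells, where 16.7% and 13.3% of all genes were. Without marked cells it was 2 and 3 of 8, where 9.48% and 8.93% of all genes were.

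**Figure D4:**
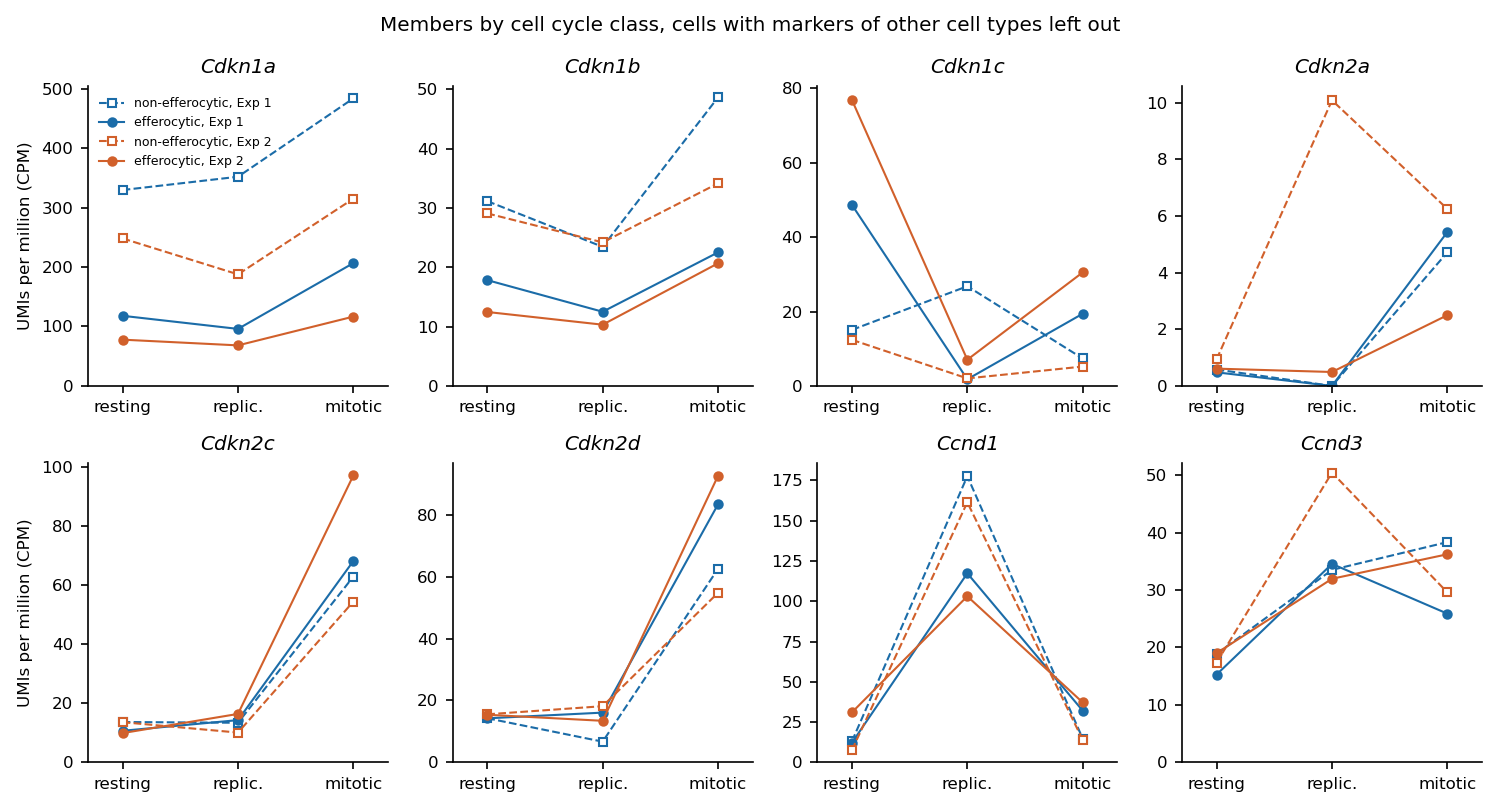
Levels of 8 of the 10 genes in resting-, replicating- and mitotic-class cells of each library, in CPM on linear axes that start at 0, without cells that carried markers of other lineages, with open squares for non-efferocytic and filled circles for efferocytic libraries (blue for Experiment 1, orange for Experiment 2). Ccnd1 is highest in the replicating class (103 to 178 CPM), and Cdkn2c and Cdkn2d in the mitotic class (54.4 to 97.0 CPM).

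Removing the library block from the model with all cells left the direction of each of these differences as it was, but ended the mitotic-class calls of Cdkn1a, Cdkn1b, Cdkn1c, Ccnd1 and Ccnd2 (edgeR adjusted p of 0.729, 0.490, 0.117, 0.150 and 0.0716) and the replicating-class calls of Cdkn1a and Cdkn1c (0.430 and 0.0546). Other alternatives with all cells also ended calls in edgeR. The mitotic-class call of Cdkn1b was lost without any 1 of 3 libraries, non-efferocytic 1 (adjusted p = 0.0639), efferocytic 1 (0.0762) or efferocytic 2 (0.0769), and on thinned counts (0.141). That of Ccnd1 was lost without non-efferocytic library 1 (edgeR adjusted p = 0.0635) or efferocytic library 1 (0.144) and on thinned counts (0.274). Cdkn1a lost its mitotic-class call without efferocytic library 1 (edgeR adjusted p = 0.123) and its replicating-class call with classes set at 8 genes (0.204). The mitotic-class calls of Cdkn2a, Cdkn2c, Cdkn2d and Ccnd3 and the replicating-class calls of Ccnd1 and Ccnd3 passed in each of these fits.

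Whether the mitotic-class difference itself differed between efferocytic and non-efferocytic BM macrophages was tested as an interaction. With all cells, 2 of 10 genes passed, Cdkn2c and Cdkn1a, where 1.88% of all genes did. Without marked cells, 2 of 8 passed, Cdkn2c and Cdkn2d, where 2.71% of all genes did. Cdkn2c thus passed in both. Its mitotic-class difference was larger in the efferocytic libraries by 1.04 with all cells (standard error 0.167, edgeR adjusted p = 0.00538) and by 0.89 without marked cells (standard error 0.165, edgeR adjusted p = 0.00256), on the log2 scale. It was 4.07- and 3.84-fold in the non-efferocytic and 6.32- and 9.21-fold in the efferocytic libraries, counted over all cells. Of mitotic-class cells, 197 of 271 and 285 of 411 non-efferocytic and 125 of 165 and 272 of 360 efferocytic ones reached 8 mitosis genes. Fitted over all libraries, the mitotic-class difference of Cdkn2c was 2.13, 2.32 and 2.62 with classes set at 4, 5 and 8 genes. The part of this class makeup in the interaction was not tested. Without the non-efferocytic library of Experiment 1 or of Experiment 2 the call was lost (edgeR adjusted p = 0.168 and 0.120), at values of 1.06 and 1.03 with 1 library left in that group. Without the efferocytic library of Experiment 1 or of Experiment 2 the gene passed, at 1.32 (edgeR adjusted p = 3.70e-10) and 0.64 (edgeR adjusted p = 0.0277), so that the size of the difference depended on the efferocytic library used.

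For Cdkn2d the efferocytic libraries had the larger difference by 0.58 (standard error 0.144, edgeR adjusted p = 0.0274) without marked cells, and by 0.47 (edgeR adjusted p = 0.0512) with all cells. Cdkn1a passed with all cells at 0.52 (edgeR adjusted p = 0.0118), but not without the non-efferocytic library of Experiment 1 or 2 (edgeR adjusted p = 0.179 and 0.177), and its value without marked cells was 0.22 (edgeR adjusted p = 0.385). In the replicating class, 2 of 10 genes passed with all cells, where 7.01% of all genes did: Ccnd3 at −1.43 (edgeR adjusted p = 0.000333) and Cdkn1a at 0.47 (edgeR adjusted p = 0.0297). The call of Ccnd3 held without each library in turn (−1.11 to −1.60), whereas that of Cdkn1a was lost without non-efferocytic library 1 or 2 or efferocytic library 2 (edgeR adjusted p = 0.104, 0.298 and 0.246). None of 8 passed without marked cells, where 0.112% of all genes did, and Ccnd3 was then at −0.34 (edgeR adjusted p = 0.819) and Cdkn1a at 0.02 (edgeR adjusted p = 0.994).

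The genes that varied most like each of the 10 from cell to cell were found for those detected in at least 5% of thinned cells of every library, from correlations over single cells within each library, among 6496 genes. They are described by the lowest and highest r over the 4 libraries. All were weak, as is usual for sparse counts of single cells that share a library. Cells with markers of other lineages were kept in these correlations, and their part in them was not tested. Cdkn1a was most like Bax (0.12 to 0.18), Gdf15 (0.11 to 0.13) and Mdm2 (0.11 to 0.14). Bax promotes cell death at mitochondria and Mdm2 marks p53 for degradation. Cdkn2c was most like Ube2c (0.087 to 0.27) and Cks2 (0.083 to 0.25), a mitotic ubiquitin-conjugating enzyme and a CDK-binding protein. Cdkn2d was most like the chromatin protein Hmgb2 (0.12 to 0.18) and Cks2 (0.12 to 0.18), and Ccnd3 was most like Hmgn2 (0.068 to 0.20). For Ccnd3 and Hmgn2, r was 0.17 and 0.20 in the non-efferocytic and 0.084 and 0.068 in the efferocytic libraries. Cdkn1b had no closer partner than the mitochondrial transcript mt-Co1 (0.065 to 0.11). Cdkn1c and Ccnd1 were not detected in enough cells for this measure.

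Genes around the CDK inhibitors and D cyclins were then followed in the efferocytic against non-efferocytic contrast of all genes. Over the 13869 genes tested (edgeR, experiment as a block, adjusted p under 0.05), 2761 were higher and 2636 lower in efferocytic libraries, which is 19.9% and 19%, with a median log2 fold change of −0.02. Without the experiment block, which pairs the libraries of 1 experiment, 2358 genes were called in all in place of 5397. Calls in the higher direction made up 51.2% of all calls, 33.3% when scaled to library totals and 92.6% when counted per cell. The background changes with the scaling: scaled to library totals, 13.3% of the genes were called higher and 26.7% lower, and counted per cell, 51% and 4.09% of 13629 genes. Counts per cell in the lists that follow are to be read against the latter pair. Of 20 CDKs, other cyclins and their modifiers, 8 were higher and 1 lower, with a median of 0.34, and counted per cell 16 were higher and 0 lower, where 51% and 4.09% of all genes were. Ccne1 (cyclin E1, the CDK2 partner at S phase entry) rose from 1.98 and 2.33 to 3.06 and 4.34 CPM in Experiments 1 and 2 (log2 fold change 0.88, edgeR adjusted p = 0.00221). Wee1, the kinase that holds CDK1 inactive, rose from 8.92 and 8.10 to 13.1 and 14.3 CPM (0.79, edgeR adjusted p = 0.000763). Ccnb2, a mitotic B cyclin, fell from 21.3 and 20.8 to 9.31 and 15.4 CPM (−0.70, edgeR adjusted p = 0.00787), a fall relative to all RNA only, as its value per cell was −0.08.

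Of 20 genes of the RB family, E2F factors and the DREAM complex, 6 were higher and 3 lower, with a median of 0.24; scaled to library totals 0 were higher, where 13.3% of all genes were, and counted per cell 14 were higher and 0 lower, where 51% and 4.09% were. Rb1, which encodes the retinoblastoma protein, fell from 26.3 and 27.8 to 16.4 and 19.4 CPM (−0.49, edgeR adjusted p = 0.00244). Its relative Rbl2 (p130), the pocket protein typical of resting cells, fell from 26.6 and 24.5 to 16.4 and 14.9 CPM (−0.60, edgeR adjusted p = 0.00117). Counted per cell, Rb1 and Rbl2 turned to 0.12 and 0.02. The repressor E2f6 and the DREAM subunit Lin54 rose by 0.45 and 0.42 on the log2 scale (edgeR adjusted p = 0.0213 and 0.0233). Scaled to library totals, neither of them passed, at 0.34 and 0.31 (edgeR adjusted p = 0.0544 and 0.0822).

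Of 26 genes comprising Trp53, its regulators and known targets other than Cdkn1a, 15 were lower and 1 higher, with a median of −0.42, but counted per cell 3 of the 25 still tested were lower and 5 higher, where 4.09% and 51% of all genes were, with a median of 0.17 against 0.61 for all genes. The largest falls were those of Btg2, an antiproliferative gene, from 43.3 and 29.5 to 14.7 and 6.15 CPM (−1.79, edgeR adjusted p = 0.000229), and Phlda3, an inhibitor of AKT, from 33.7 and 22.8 to 11.7 and 7.81 CPM (−1.43, edgeR adjusted p = 4.87e-05). Both passed also when counted per cell, at −1.18 and −0.81, as did Trp53inp1 at −0.76 (edgeR). Tigar, a regulator of glycolysis, rose from 3.42 and 3.61 to 4.59 and 6.27 CPM (0.72, edgeR adjusted p = 0.00384). Trp53 itself was at −0.21 (edgeR adjusted p = 0.0505), Bax at −0.29 (edgeR adjusted p = 0.0512) and Gdf15 at −0.08 (edgeR adjusted p = 0.593). Of the genes nearest to Cdkn1a from cell to cell, only Mdm2 passed in this fit, at −0.25 (edgeR adjusted p = 0.0363). Counted per cell, Mdm2 turned to 0.37 (edgeR adjusted p = 0.184) and Gdf15 passed at 0.54 (edgeR adjusted p = 0.0327). The median of all genes on that scale was 0.61. Scaled to library totals, Bax and Mdm2 passed at −0.40 and −0.35 (edgeR adjusted p = 0.00205 and 0.00586).

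Of 36 regulators of these genes, 6 were higher and 10 lower, with a median of −0.12, and counted per cell 15 were higher and 3 lower, where 51% and 4.09% of all genes were. Myc, which promotes entry into the cycle, rose from 4.93 and 3.69 to 8.12 and 9.84 CPM (1.18, edgeR adjusted p = 0.00103). RM1 cells were made with Myc, and RNA of RM1 cells and of macrophages cannot be told apart in this value. Id2 rose from 104 and 64.0 to 126 and 128 CPM (0.74, edgeR adjusted p = 0.00498), whereas its relative Id3 fell from 16.6 and 7.89 to 4.19 and 2.08 CPM (−1.85, edgeR adjusted p = 4.78e-05). Egr1, an immediate-early factor, fell from 11.4 and 10.1 to 2.62 and 0.960 CPM (−2.61, edgeR adjusted p = 0.000395). Csf1r, the M-CSF receptor that sustains D cyclin expression, fell from 849 and 732 to 364 and 300 CPM (−1.15, edgeR adjusted p = 0.000265).

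Cdkn1c being imprinted, 25 imprinted genes were listed, of which 18 passed the filter. Of these 3 were higher and 6 lower, with a median of −0.31, and counted per cell 6 were higher and 3 lower, against the same shares of all genes. Igf2r rose from 40.3 and 37.6 to 65.0 and 60.7 CPM (0.80, edgeR adjusted p = 0.000258) and Impact from 22.6 and 25.6 to 35.1 and 38.4 CPM (0.72, edgeR adjusted p = 0.000488). The third to rise was Kcnq1ot1, the antisense RNA of the imprinted cluster that holds Cdkn1c, from 31.6 and 34.1 to 36.2 and 49.8 CPM (0.48, edgeR adjusted p = 0.00428). Kcnq1, Slc22a18 and Cd81, other listed genes of that region, were not called. They were at 0.47, −0.11 and −0.02 (edgeR adjusted p = 0.461, 0.523 and 0.861), Kcnq1 at no more than 0.129 CPM. H19 and Grb10 fell by 1.50 and 1.17 on the log2 scale (edgeR adjusted p = 0.00693 and 0.00223), at levels under 3 CPM and beside the stromal markers, whose part in this was not tested.

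**Figure D5:**
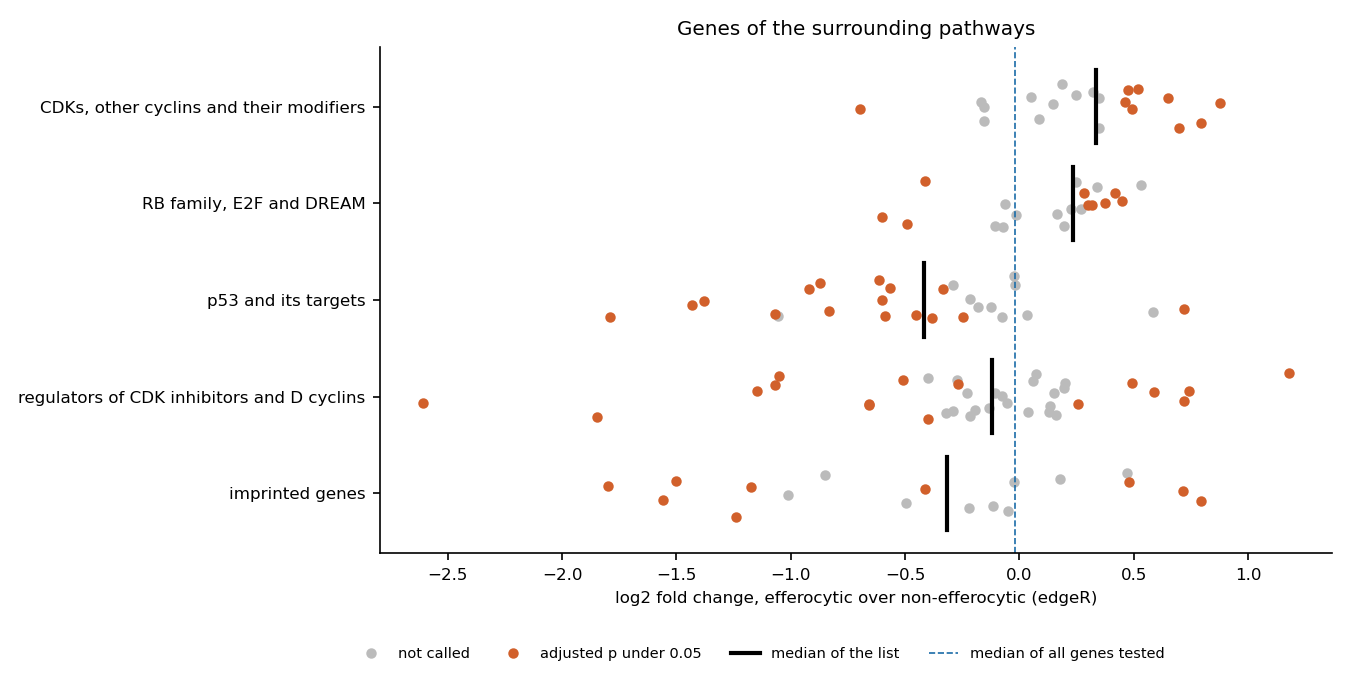
Log2 fold change of each tested gene, efferocytic minus non-efferocytic, in the 5 lists, 1 point per gene, orange where called by edgeR and grey where not, with a bar at the median of each list and a dashed line at the median of all genes tested. With TMM scaling, the median is −0.42 for p53 and its targets and 0.34 for CDKs and other cyclins, against −0.02 for all genes tested. Scaled to library totals alone, these medians are −0.52, 0.23 and −0.12, and per cell they are 0.17, 0.95 and 0.61.

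In the 5 lists 59 genes were called with the experiment block and 26 without it (edgeR). With a library left out 1 group kept a single library, which was assumed to vary like the other group, and the fit had no block. In such fits 38 and 13 genes were called without the efferocytic library of Experiment 1 or 2, but 0 without either non-efferocytic library. With a non-efferocytic library left out, 2999 and 3494 genes of all still had an unadjusted p under 0.05.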

How the data were processed

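UMI counts of sorted BM macrophages in 4 libraries were analyzed. The authors aligned reads to the mm10 genome (Cell Ranger), and the deposited values are counts of UMIs for each gene and barcode and were not normalized. The submitters' processing notes name version 3.0.0, as do the file headers of Experiment 1, while those of Experiment 2 name 3.1.0. The clustering and per-cell tests of the study were not repeated.

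Per library, the UMIs of all cells were added up per gene, and these sums were compared in edgeR 4.0.16 in R 4.3.3 (quasi-likelihood test, TMM scaling, filterByExpr, Benjamini-Hochberg adjustment, threshold 0.05), with the experiment as a block. The labels give the experiment, so the numbers pair the libraries, and libraries of 1 experiment deviated together from their group means (correlation 0.799 over 7097 genes). Classes were summed and tested in the same way with the library as a block. The group test and the mitotic-class test were tried on simulated data that held no block effect. The replicating-class and interaction tests were not tried on simulated data. Doublets were not removed. The 10 genes, Npy and Plpp3, the lists and the motifs were chosen with earlier results of these data known. From each list, the called genes with the largest change in each direction (up to 2) were named where their mean reached 1 CPM and both experiments had the same sign, and Trp53, Bax, Gdf15, Mdm2, Trp53inp1, Csf1r and Kcnq1ot1 were added after their values were seen. Alternatives were no block, DESeq2 1.42.0, other scalings and filters, other sets of cells, removal of free RNA and leaving out each library. At this depth 3 counts in a library correspond to at most 0.0296 CPM.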

Additional observations from a re-analysis of the deposited data

Results flagged for a closer look

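Whether class differences were alike in both groups was asked in 4 edgeR interaction tests, of 2 classes with and without cells that carried markers of other lineages. The classes were not matched between the groups in their numbers of detected cell cycle genes. In the mitotic class 2 of 10 genes passed with all cells and 2 of 8 without marked cells, where 1.88% and 2.71% of all genes did. The mitotic-class difference of Cdkn2c was larger in efferocytic libraries by 1.04 on the log2 scale with all cells and by 0.89 without marked cells (edgeR adjusted p = 0.00538 and 0.00256), and ranged from 0.64 to 1.32 with 1 library left out, the call being lost without the non-efferocytic library of Experiment 1 or 2 (edgeR adjusted p = 0.168 and 0.120). That of Cdkn2d was larger by 0.58 without marked cells (edgeR adjusted p = 0.0274) but did not pass with all cells (edgeR adjusted p = 0.0512). That of Cdkn1a was larger by 0.52 with all cells (edgeR adjusted p = 0.0118), did not pass in those fits (edgeR adjusted p = 0.179 and 0.177), and was at 0.22 without marked cells (edgeR adjusted p = 0.385). In the replicating class 2 of 10 genes passed with all cells, where 7.01% of all genes did (0.112% without marked cells). Ccnd3 differed by −1.43 (edgeR adjusted p = 0.000333) and Cdkn1a by 0.47 (edgeR adjusted p = 0.0297) with all cells, and with 1 library left out the call of Cdkn1a was lost in 3 of 4 fits and that of Ccnd3 in none. Neutrophil-lineage markers were at 68412 and 64096 CPM in the replicating class of non-efferocytic libraries and at 5806 and 20.1 CPM in that of efferocytic libraries, and without marked cells Ccnd3 was at −0.34 (edgeR adjusted p = 0.819) and Cdkn1a at 0.02 (edgeR adjusted p = 0.994).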

How the results depend on the processing

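Against 5397 genes called between the groups, 2358 were called without the block that pairs the libraries of an experiment (1285 higher and 1073 lower), 3404 by DESeq2, 3026 at a mean of at least 10 CPM (of 7097 genes tested in place of 13869), and 317 after removal of free RNA, when 4434 had an unadjusted p under 0.05. Without 1 library, and then without the block, the count ranged from 0 (without the non-efferocytic library of Experiment 2) to 2933. It was 2 without that of Experiment 1, and with an efferocytic library left out it was 2933 (Experiment 1) and 1204 (Experiment 2). In the pathway lists the count of 59 was 26 without the block, 9 after removal of free RNA and 0 to 38 without 1 library. The mitotic-class count of 5419 was 2627 without the library block and 3247 on thinned counts, and the replicating-class count of 3465 was 1703, 1378 and, without marked cells, 1969. Leaving out 1 library gave 4236 to 4715 and 1992 to 2966. Interaction calls ranged from 9 to 705 (mitotic, 217 with all libraries) and from 194 to 1220 (replicating, 810), and were 12 in the replicating class without marked cells. Of the 10 genes, 5 were detected in a larger share of efferocytic cells in both experiments unthinned, 2 at 5000 UMIs and 2 at 2000 UMIs. Those with a smaller share numbered 3, 7 and 6, and the same counts over all genes were not made.

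Among the 10 genes, Cdkn2b changed sign when counted per cell, to 0.13 from −0.49. Other fitted values between the groups kept their direction under every alternative, except for Cdkn2c and Ccnd3 per cell and Cdkn2d after removal of free RNA. Class differences that passed the test kept their direction in every fit, but Ccnd2 could not be fitted on thinned counts or without marked cells, and its levels without marked cells had no common direction. Among those that did not pass, the replicating-class values of Cdkn2b, Cdkn2c and Cdkn2d changed sign under some alternatives, and none of those values was past the threshold. Calls were also gained in the replicating class, by Cdkn2a with classes set at 4 or at 8 genes and by Cdkn1b with classes set at 8 genes. Leaving out the barcodes shared by 2 libraries left all values as they were to within the spread between experiments. Removal of free RNA left 0 UMIs of Ccnd2 in all 4 libraries, so Ccnd2 has no fold change there. It left 0 UMIs of Cdkn1c in the non-efferocytic library of Experiment 1, so Cdkn1c has none in that experiment. In Experiment 2 the efferocytic to non-efferocytic ratio of Cdkn1c was 6.05 after removal, in place of 5.56. With 2 libraries per group, values of Cdkn2a, Cdkn2b and Ccnd2 rested on the fewest UMIs, from 143 to 468 a library.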

Other observations

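Several of the 10 genes had levels outside cells unlike those inside. In barcodes of 10 to 100 UMIs, Ccnd2 was at 78.0 and 97.0 CPM in the non-efferocytic and 119 and 114 CPM in the efferocytic libraries, from 159 to 286 UMIs, against 1.62 to 4.08 CPM in cells. Ccnd3 was at 69.3 and 106 CPM in these barcodes of Experiment 1 and at 40.9 and 34.6 CPM in Experiment 2. The efferocytic to non-efferocytic ratio of Cdkn1c in them was 1.37 in Experiment 1 (exact 95% interval 1.24 to 1.52, counting error only) and 1.68 in Experiment 2 (0.948 to 3.04), against 3.83 and 5.56 in cells. For Cdkn1a it was 0.827 (0.726 to 0.941) and 1.24 (1.07 to 1.45), against 0.366 and 0.326 in cells.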
